A study of Mus musculus with 8 samples.

Results

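DNA methylation was compared between lung metastases marked TVI and primary tumors marked MFP in the 4T1 model, and the comparison took in 5 of the 8 samples of the study and all 136069 cytosine positions of its table. The 4T1 line is a mouse mammary carcinoma line of BALB/c origin that spreads spontaneously to the lung. Every sample came from 4T1 cells, and the labels give BALB/c as the strain, mammary tumor as the tissue of the 2 primary tumors and lung metastases as the tissue of the others. The 3 TVI lung metastases were set against the 2 primary tumors, and 3 lung metastases marked MFP were used as a further reference. MFP and TVI are used here unexpanded, as in the labels. The primary tumors and the TVI metastases differed both in tissue and in the MFP or TVI mark, and within this contrast the contributions of tissue and mark cannot be told apart. No genotype, treatment, time or animal age was given, and the labels leave unsaid whether the replicates were separate animals. P-values therefore measure only the spread between the samples at hand, which may be technical.

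In mammalian DNA, methyl groups are placed mainly on cytosines that are followed by guanine (CpG). Most CpGs of the genome are methylated, whereas dense clusters of CpGs at gene starts, called CpG islands, are usually free of methylation, and methylation over such a start commonly accompanies a silent gene. The borders of these islands, called shores, differ between tissues and tumors more often than the island centers. Bisulfite sequencing reads the methylated share of the DNA molecules at each CpG. The samples were bulk tissue, in which a change of methylation within the tumor cells and a change in the mix of cells cannot be told apart.

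The deposited table carries positions but no gene names. Gene starts were therefore located by sequence: the CpGs of each RefSeq promoter (GRCm38.p6, from 250 bases before to 50 bases after the start) were slid along the same chromosome of the table until their spacing coincided with that of the measured sites. This placed 292 of 32851 windows, which belong to 263 genes, of them 206 protein coding. Promoters written backwards were also searched and 0 of them were placed, but the limits of the match were set with that control in view, so it does not measure how specific the placements are. In 261 windows the placed position lay over 10 bp from the GRCm38 position, and by up to 7255371 bp, so positions below are those of the deposited table and are not GRCm38 (mm10) positions. The 7 promoters below carried large differences in each direction and were picked for display after their values were seen. The 250 bases before the start are printed 5′ to 3′ along the gene, and capitals mark the CpGs that the table covers, whose methylation is the measurement.

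The first 4 lines are promoters with more methylation in TVI metastases: Notch1, the receptor of a cell contact signal, at chr2:26359344-26359593 on the minus strand; Fzd1, a Wnt receptor, at chr5:4758218-4758467 on the minus strand; Hoxa10, a homeobox transcription factor, at chr6:52190855-52191104 on the minus strand; and Dennd4b, a DENN domain protein of membrane traffic, at chr3:90070187-90070436 on the plus strand.
Notch1: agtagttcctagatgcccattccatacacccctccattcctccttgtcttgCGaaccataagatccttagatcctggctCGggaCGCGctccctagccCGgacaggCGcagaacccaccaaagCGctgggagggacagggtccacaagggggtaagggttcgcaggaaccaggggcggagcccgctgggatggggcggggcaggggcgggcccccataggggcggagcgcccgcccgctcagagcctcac
Fzd1: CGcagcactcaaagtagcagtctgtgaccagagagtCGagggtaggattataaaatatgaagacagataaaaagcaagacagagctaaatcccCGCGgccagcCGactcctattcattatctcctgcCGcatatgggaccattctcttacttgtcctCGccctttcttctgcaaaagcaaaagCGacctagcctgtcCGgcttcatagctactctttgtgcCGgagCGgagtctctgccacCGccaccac
Hoxa10: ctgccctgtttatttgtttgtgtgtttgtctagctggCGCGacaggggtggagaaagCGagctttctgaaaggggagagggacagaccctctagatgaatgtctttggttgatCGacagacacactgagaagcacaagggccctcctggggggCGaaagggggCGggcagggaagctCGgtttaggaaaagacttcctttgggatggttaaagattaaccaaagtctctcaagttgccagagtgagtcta
Dennd4b: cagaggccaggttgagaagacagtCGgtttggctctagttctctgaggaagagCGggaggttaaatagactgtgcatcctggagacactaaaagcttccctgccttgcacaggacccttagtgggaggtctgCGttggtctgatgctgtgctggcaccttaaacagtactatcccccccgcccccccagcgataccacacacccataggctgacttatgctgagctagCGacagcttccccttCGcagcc
The next 3 lines are promoters with less methylation in TVI metastases: Cldn7, a claudin of epithelial tight junctions, at chr11:69778674-69778923 on the plus strand; Cyba, a membrane subunit of the NADPH oxidases, at chr8:124956842-124957091 on the minus strand; and Creld1, a cysteine-rich protein with EGF-like domains, at chr6:113433101-113433350 on the plus strand.
Cldn7: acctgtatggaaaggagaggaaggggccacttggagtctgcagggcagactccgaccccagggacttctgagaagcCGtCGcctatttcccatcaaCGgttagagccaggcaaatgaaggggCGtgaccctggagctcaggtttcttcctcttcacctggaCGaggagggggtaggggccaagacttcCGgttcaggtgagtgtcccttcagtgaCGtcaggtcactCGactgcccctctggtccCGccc
Cyba: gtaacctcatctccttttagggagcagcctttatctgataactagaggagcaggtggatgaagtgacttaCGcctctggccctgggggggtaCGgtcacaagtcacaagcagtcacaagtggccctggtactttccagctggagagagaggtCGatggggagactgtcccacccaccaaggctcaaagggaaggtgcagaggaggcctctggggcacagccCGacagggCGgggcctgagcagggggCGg
Creld1: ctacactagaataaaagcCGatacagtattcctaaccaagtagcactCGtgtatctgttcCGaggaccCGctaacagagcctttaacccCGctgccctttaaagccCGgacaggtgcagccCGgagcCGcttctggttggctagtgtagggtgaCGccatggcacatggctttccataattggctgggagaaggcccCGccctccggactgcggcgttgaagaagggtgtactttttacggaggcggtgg
In the Notch1 stretch 7 of 16 CpGs were measured, and in the Fzd1 stretch all 12.

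TVI metastases were more methylated than the primary tumors across the table. The mean over all sites was 66.9% and 66.6% in the tumors, and 68.7%, 68.5% and 68.6% in the TVI metastases. The groups did not overlap and the difference was 1.85 points, with an exact two-sided permutation p of 0.2. The two-sided p was taken as the doubled one-sided p, and 0.2 is the smallest such value over 10 possible splits of 5 samples. The same p came with the share of sites methylated at 80% or more, which was 60.8% ± 0.474 (SD, n = 2) in the tumors and 63.5% ± 0.0289 (SD, n = 3) in the TVI metastases. Sites methylated at 20% or less made up 22.9% ± 0.0805 (SD, n = 2) in the tumors and 21.9% ± 0.194 (SD, n = 3) in the TVI metastases. On each of these measures every MFP metastasis lay between the tumors and the TVI metastases. The mean over all sites was 67.42%, 67.43% and 67.49% in the MFP metastases. A smaller rise over both tumors was thus also present in the MFP metastases, and its cause was not tested. The table holds methylated fractions without read numbers, and their depth is unknown.

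Individual sites moved much further than the mean, and in both directions. In a limma fit over all 8 samples with Benjamini-Hochberg adjustment at 0.05, 22552 of 135914 varying sites (16.6%) differed between TVI metastases and tumors, of which 15428 (11.4%) were higher and 7124 (5.24%) lower in the metastases. The median size was 18.7 points among the higher sites and 18.6 points among the lower sites, and 420 higher and 305 lower sites differed by 50 points or more. The median difference over all sites was 0.69 points. The same fit gave 23001 sites (16.9%) between TVI and MFP metastases and 63 sites (0.0464%) between MFP metastases and tumors. These 3 contrasts share samples with each other. When all samples were first brought to one distribution by quantile normalization, the split was nearly even, with 10073 sites higher and 9688 lower. That step removes any overall shift between samples, so the excess of higher over lower sites depends on whether such a shift is kept. On the log2 odds scale the excess stayed, with 14511 sites higher and 6658 lower. Differences are given here on the deposited scale.

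By chromosome, the difference in mean was largest on chromosome 12, at 66.8% in the tumors and 70.0% in the TVI metastases, and 20.1% of its sites passed the threshold. On chromosome 13, with 477 sites, the mean was 36.4% in the tumors and 36.3% in the TVI metastases and the samples overlapped. On chromosome 3 the means were 63.9% and 64.2%, also with overlap. On each of the other chromosomes every TVI metastasis had a higher mean than both tumors.

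Sites of intermediate methylation changed most often. With sites classed by their mean in MFP metastases, which are not part of the contrast, 60.3% of the sites between 20% and 40% passed the threshold, 44.2% higher and 16.1% lower. The share was 54.4% for sites between 40% and 60% and 46.8% between 60% and 80%. Among sites above 80%, 8.33% passed, and here lower sites (4.42%) were slightly more frequent than higher ones (3.91%). Among sites at 20% or less, 12.7% were higher and 1.98% lower. A full switch was rare: 38 sites went from 20% or less in the tumors to 80% or more in the TVI metastases and 47 went the opposite way.

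**Figure D1:**
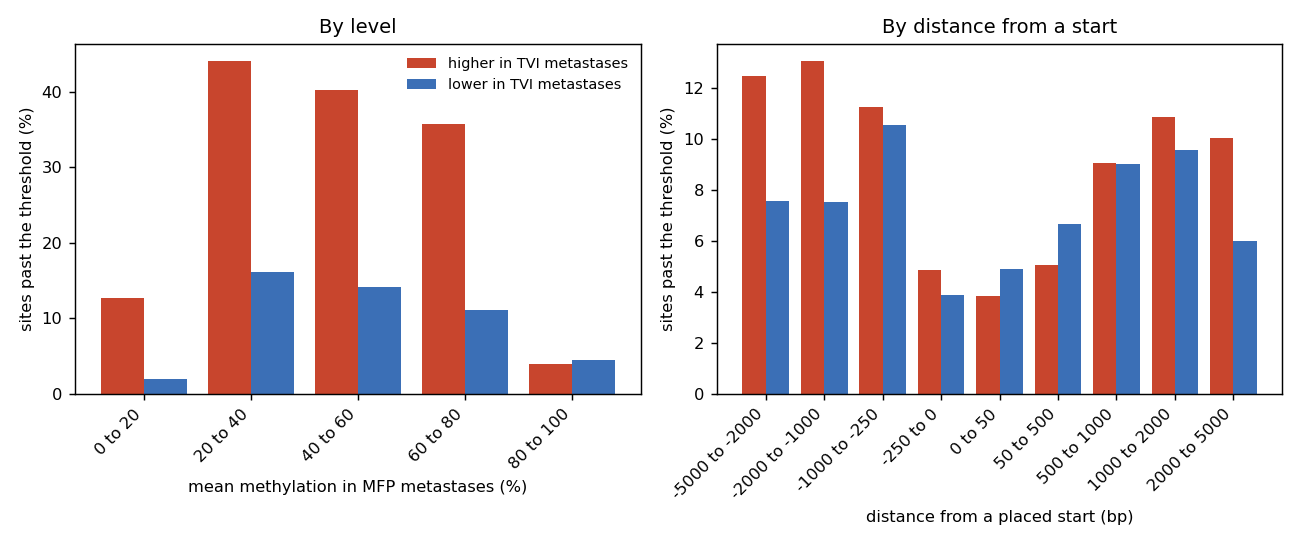
Bars give the percentage of sites past the threshold that were higher (red) or lower (blue) in the 3 TVI metastases than in the 2 tumors. On the left, sites are classed by mean methylation (%) in MFP metastases, and between 20% and 40% the higher share reached 44.2%. On the right, sites are classed by distance (bp) from a placed gene start, negative before the start, and fewest sites passed within 250 bp before the start and 50 bp after it.

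Neighboring sites were then averaged. Joining sites up to 500 bp apart gave 3083 regions of at least 3 sites, with a median of 31 sites and 1935 bp, and 1828 regions (59.3%) differed in their mean, 1530 (49.6%) higher and 298 (9.67%) lower in TVI metastases. Region means changed less than single sites, by a median of 4.21 points in the higher and 4.48 points in the lower regions. In 241 higher and 50 lower regions the difference was 10 points or more. After quantile normalization 861 regions were higher and 663 lower, and on the log2 odds scale 1530 were higher and 291 lower. The direction of small region differences thus depends on whether an overall shift between samples is kept. Sites past the threshold in both directions occurred together in 1275 of the 3083 regions. The longest unbroken run of higher sites held 32 sites and the longest run of lower sites held 104.

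**Figure D2:**
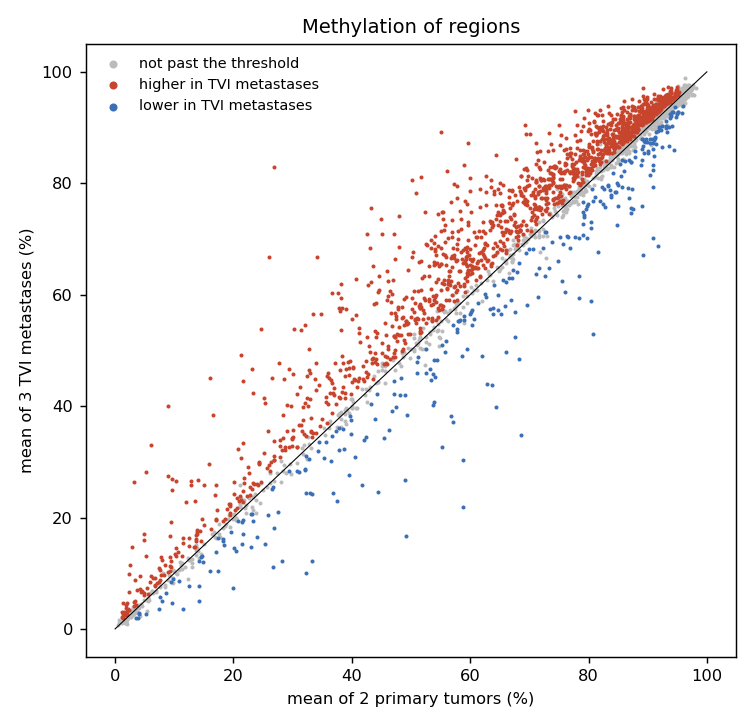
Each point is 1 of 3083 regions, placed by its mean methylation (%) in the 2 tumors (horizontal) and in the 3 TVI metastases (vertical), with the line of equality. Red and blue points are the 1530 higher and 298 lower regions past the threshold, and the largest differences lie at intermediate tumor levels.

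Among the placed promoters, 52 of 263 (19.8%) differed, 37 (14.1%) higher and 15 (5.7%) lower in TVI metastases. In all 52 the TVI samples lay on one side of both tumors, which selection on these same values favors. Most placed promoters had almost no methylation: 180 were under 5% in every sample. Of the 197 promoters at 20% or less in MFP metastases, 13 rose and 3 fell. Of the 32 between 20% and 80%, 15 rose and 8 fell, and of the 34 above 80%, 9 rose and 4 fell. The median difference over all placed promoters was 0.16 points. Windows that rose held a median of 9 CpGs, those that fell held 18 and the other 211 held 19. After quantile normalization 20 promoters were higher and 21 lower. Between MFP metastases and tumors the limma fit gave 0 promoters (0%), and 27 at an unadjusted p under 0.05, whereas between TVI and MFP metastases it gave 49 (18.6%).

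**Figure D3:**
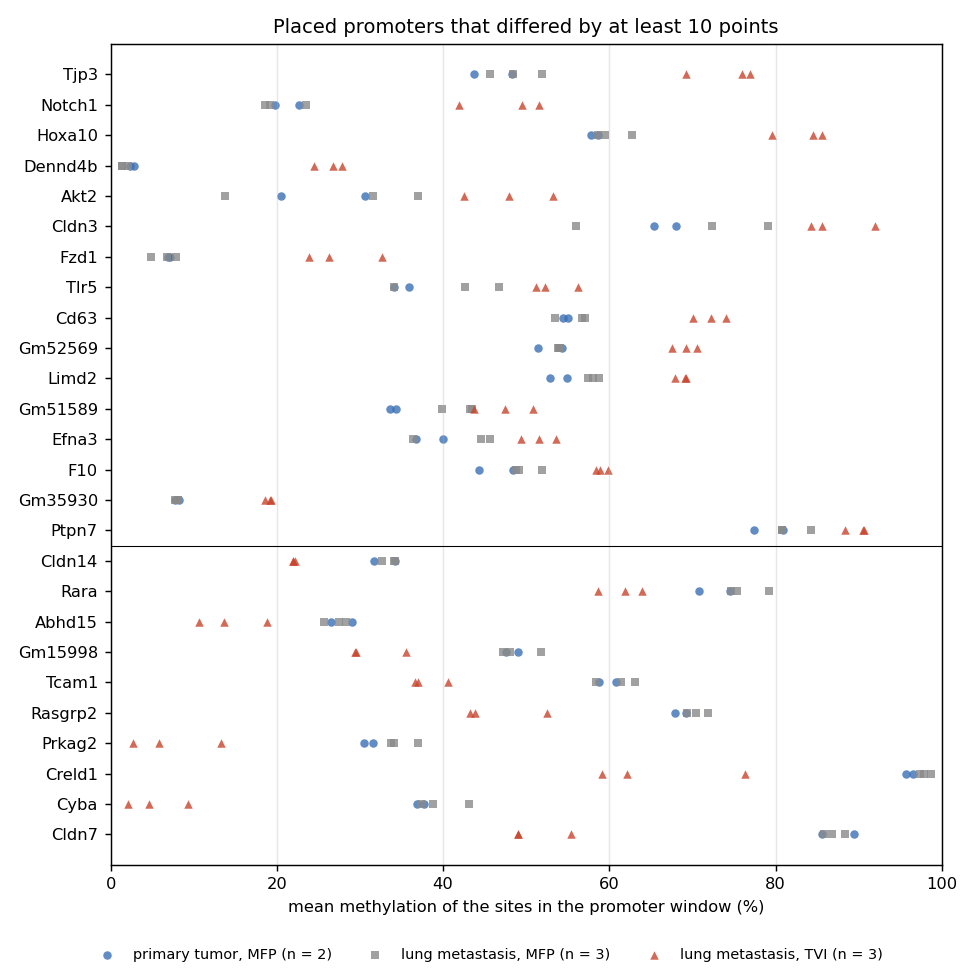
Mean methylation (%) of the promoter window in each of the 8 samples for the 26 placed promoters that differed by at least 10 points between TVI metastases (red triangles) and primary tumors (blue circles), with MFP metastases in gray squares. Promoters above the line were higher and those below it lower in TVI metastases. The 3 TVI samples do not overlap the 2 tumors in any row, which selection on these same values favors.

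Among the placed promoters, Tjp3 had the largest rise and Cldn7 the largest fall. Claudins are the membrane proteins that form the strands of tight junctions, and Tjp3 encodes the cytoplasmic scaffold protein ZO-3 that anchors them. Over the Tjp3 promoter, methylation was 48.2% and 43.8% in the tumors and 69.2%, 76.9% and 76.0% in the TVI metastases, higher by 28.1 ± 3.0 points (SE, adjusted p = 1.89e-04, limma). The Cldn7 promoter moved the opposite way, from 89.4% and 85.6% to 55.4%, 49% and 49%, lower by 36.3 ± 2.20 points (SE, adjusted p = 4.52e-06, limma). Every TVI sample lay far below both tumors, and the loss was deepest at the CpGs nearest the start.

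Of the 7 claudins placed, 1 was higher, 2 were lower and the others did not pass, where 14.1% of all placed promoters were higher and 5.7% lower. Over the Cldn3 promoter methylation was 65.4% and 68.0% in the tumors and 91.9%, 85.6% and 84.3% in the TVI metastases, a difference of 20.5 ± 5.46 points (SE, adjusted p = 0.0242, limma). That call rests on 5 sites and was lost when either tumor or any of the 3 TVI samples was left out, with adjusted p from 0.0514 to 0.122. It was also lost after quantile normalization (0.0788) and without the variance trend (0.0726). The wider region over the start of Cldn3, 101 sites from 492 bp before to 2057 bp after it, was higher by 19.5 ± 1.59 points (SE, adjusted p = 3.05e-05, limma). The Cldn14 promoter was at 34.2% and 31.7% in the tumors and at 22%, 22.2% and 21.9% in the TVI metastases. In the list of genes of epithelial-mesenchymal transition 2 of 30 were placed, Cldn3 and Cldn7, and they moved in opposite directions. The region from 3709 to 8180 bp after the start of Jup, which encodes the junction protein plakoglobin, was at 51.9% ± 0.48 (SD, n = 2) in the tumors and 63.1% ± 0.71 (SD, n = 3) in the TVI metastases. It also lies 8506 to 4035 bp before the placed start of the noncoding gene Gm12348.

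Notch1, Fzd1 and Hoxa10 gained methylation in their promoter windows. Notch1 was at 19.7% and 22.7% in the tumors and at 51.6%, 49.4% and 41.9% in the TVI metastases, higher by 26.5 ± 2.98 points (SE, adjusted p = 2.25e-04, limma), and all 7 sites in its window passed the threshold. Those 7 sites are the capitals of the printed Notch1 sequence, and they lie at -198 to -126 bp from the start. The next measured sites, from 343 to 1515 bp after the start, were nearly unmethylated in every group. Further on, every measured site from 1602 to 2159 bp after the Notch1 start was higher past the threshold. At 1602 bp the mean went from 0.455% in the tumors to 7.29% in the TVI metastases, and at 1790 bp from 11.7% to 72.2%. Within 3000 bp of the Notch1 start 39 sites were higher and 1 was lower. Fzd1 was at 7.19% and 6.92% in the tumors and at 26.2%, 32.6% and 23.9% in the TVI metastases, higher by 20.5 ± 2.16 points (SE, adjusted p = 1.89e-04, limma), with 11 of 12 sites higher. Hoxa10 was at 57.8% and 58.6% in the tumors and at 79.6%, 85.6% and 84.5% in the TVI metastases, higher by 25.0 ± 2.16 points (SE, adjusted p = 4.13e-05, limma), with all 12 sites higher. In all 3 genes the MFP metastases stayed near the tumors, at 20.4%, 6.52% and 60.3%.

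Lists of pathway genes could be read only where a promoter was placed. In the Wnt list 2 of 50 genes were placed, Fzd1, which rose, and Gsk3b, a kinase that marks beta-catenin for destruction, at 1.52% ± 0.405 (SD, n = 2) in the tumors and 1.69% ± 0.168 (SD, n = 3) in the TVI metastases. In the Notch list 2 of 20 were placed, Notch1, which rose, and the ligand gene Dll4, between 0.783% and 1.73% in the 5 samples. The retinoic acid receptor gene Rara was the 1 nuclear receptor of 23 placed, and it fell from 74.6% and 70.8% to 63.9%, 58.7% and 61.9%, with an adjusted p of 0.0044 in limma. Without tumor replicate 1 its adjusted p was 0.0539. Akt2, a kinase of insulin and growth factor signaling, was the 1 gene of 41 placed in the list of tumor suppressors and oncogenes. It rose from 30.6% and 20.4% to 48.0%, 53.3% and 42.5%, with an adjusted p of 0.0302 in limma, and the call was lost in 9 of 14 other settings. These were the fits without tumor replicate 2 (0.211) or without any 1 of the TVI samples (0.0547 to 0.0952), quantile normalization (0.131), the log2 odds scale (0.0680), no variance trend (0.0817), a robust prior (0.0577) and the replicate block (0.0599). None of the 3 placed angiogenic genes, Vegfa, Flt1 and Pdgfa, and none of the 8 placed genes of NF-kB and interferon signaling passed in limma at their promoters, with 0 and 2 of them at an unadjusted p under 0.05. As 19.8% of all placed promoters passed, lists this small can hold no passing member without differing from the rest. Of the imprinted, TGF-beta, adhesion and chromatin lists, and of all 5 lists of cell type markers (leukocytes, endothelium, fibroblasts, lung and mammary epithelium), 0 members were placed. The labelled tissue could therefore not be checked against marker genes.

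Other promoters gained methylation from a low or a middle level. Dennd4b was at 2.32% and 2.86% in the tumors and at 26.8%, 27.8% and 24.4% in the TVI metastases, higher by 23.8 ± 0.981 points (SE, adjusted p = 2.81e-07, limma). It was the promoter with the lowest p, and the MFP metastases were at 1.63%. Cd63, a tetraspanin of late endosomes, rose from 55.0% and 54.4% to 70.0%, 72.2% and 74.0%. Tlr5, the receptor of bacterial flagellin, was at 34.1% and 35.9% in the tumors and at 56.3%, 51.1% and 52.2% in the TVI metastases, and its adjusted p in limma went from 0.0043 to 0.0505 after quantile normalization. The remaining protein-coding risers of 10 points or more were Limd2, a LIM domain protein, by 14.8 points, the ephrin ligand gene Efna3 by 13.1, the coagulation factor gene F10 by 12.7 and the phosphatase gene Ptpn7 by 10.7. Of these, Efna3 lost its call without tumor replicate 2 (adjusted p = 0.105, limma) and without TVI replicate 3 (0.0577), and after quantile normalization its difference was 5.74 points (0.241). Ddr1, a receptor tyrosine kinase for collagen, rose by 7.05 ± 1.26 points in the window itself, from 0.832% and 1.74% to 8.05%, 9.45% and 7.52%. Around this start, 38 sites from 778 bp before to 1063 bp after it went from 4.90% ± 0.405 (SD, n = 2) to 17.1% ± 2.06 (SD, n = 3). The start used lies at position 35838990, and other Ddr1 starts were placed before it at 35841085 and 35841545.

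Cyba and Prkag2 were among the promoters that lost methylation. Cyba was at 37.7% and 36.8% in the tumors and at 9.30%, 2.04% and 4.67% in the TVI metastases, lower by 31.9 ± 2.45 points (SE, adjusted p = 1.88e-05, limma). Within 3000 bp of its start 58 sites fell, all between 894 bp before and 1075 bp after it, and 8 other sites rose within 3000 bp. Prkag2, a regulatory subunit of the energy sensor AMPK, was at 31.6% and 30.5% in the tumors and at 13.3%, 2.71% and 5.78% in the TVI metastases, lower by 23.8 ± 2.73 points (SE, adjusted p = 2.44e-04, limma). Both promoters were partly methylated in the tumors and nearly free of methylation in TVI replicates 2 and 3.

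Creld1 was almost fully methylated in the tumors, at 96.5% and 95.7%, and stood at 76.3%, 62.1% and 59.1% in the TVI metastases, lower by 30.2 ± 4.00 points (SE, adjusted p = 5.16e-04, limma). All 10 sites of its window fell. Rasgrp2, an exchange factor for Rap1, went from 69.2% and 67.9% to 52.5%, 43.3% and 43.9%. Tcam1, a cell adhesion gene known from the testis, went from 58.7% and 60.8% to 40.6%, 36.7% and 36.9%. Abhd15, a hydrolase domain gene, went from 29.1% and 26.5% to 18.8%, 10.7% and 13.7%. In 9 of the 10 promoters that fell by 10 points or more, TVI replicate 1 had the highest methylation of the 3 TVI samples, and in 6 of the 16 that rose by as much it had the lowest.

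**Figure D4:**
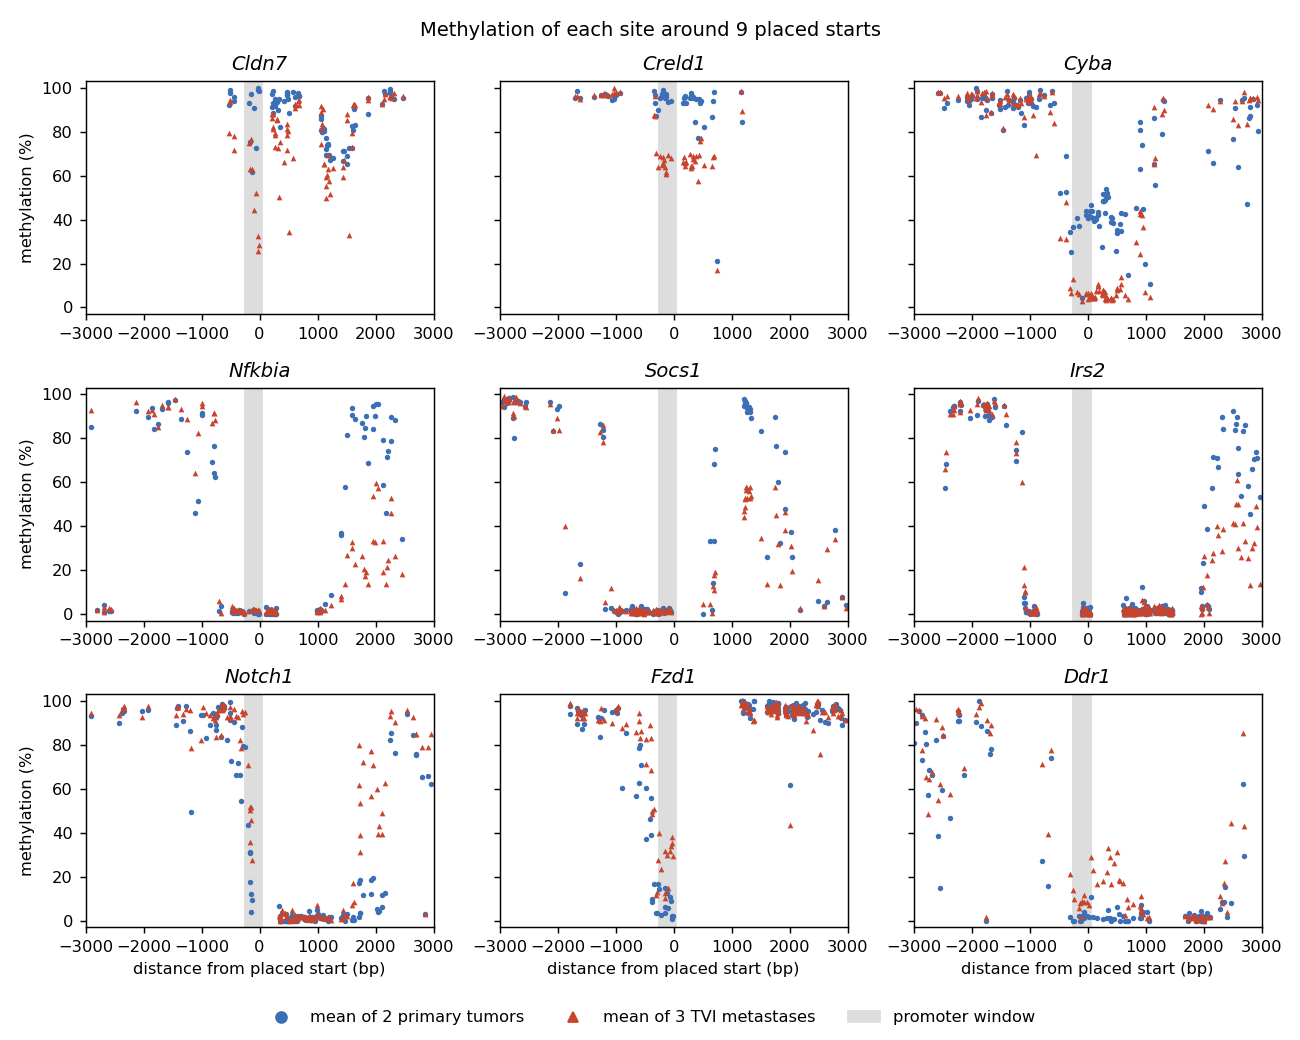
Methylation (%) of each measured site within 3000 bp of 9 placed starts, as the mean of the 2 tumors (blue circles) and of the 3 TVI metastases (red triangles), against distance from the start in bp; the gray band is the 300-base promoter window. Cldn7, Creld1 and Cyba were lower across the start, Nfkbia, Socs1 and Irs2 were lower mainly after an unmethylated start, and Notch1, Fzd1 and Ddr1 were higher beside or over the start.

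At several genes the start itself stayed unmethylated and the loss lay after it. Nfkbia encodes the inhibitor that holds NF-kB in the cytoplasm, and its promoter was between 0.852% and 1.96% in all 5 samples. From 982 to 2454 bp after the start (chr12:56591181-56592653), 34 sites averaged 58.0% and 59.4% in the tumors and 27.1%, 17.3% and 21.2% in the TVI metastases. This stretch also lies 3102 to 1630 bp before the placed start of the noncoding gene Gm36634. The region was lower by 36.9 ± 2.43 points (SE, adjusted p = 1.40e-05, limma), the largest fall among all regions, and 26 neighboring sites fell without a break. At its strongest site, position 56591800, methylation was 90.1% and 89.8% in the tumors and 21.9%, 13.6% and 22.3% in the TVI metastases.

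Socs1, a feedback inhibitor of cytokine receptors, followed the same layout. Its promoter was under 2.1% in all 5 samples, 7 sites from 506 to 709 bp after the start fell from 33.7% and 30.7% to 14.9%, 6.42% and 8.89%, and 48 sites from 1214 to 5054 bp after it fell by 13.2 ± 1.71 points (SE, adjusted p = 3.30e-04, limma). The annotated length of Socs1 is 1729 bp, so most of this longer stretch lies past the end of the gene. A block of 44 sites between 7266 and 4529 bp before the start rose by 12.6 ± 1.09 points (SE, adjusted p = 4.10e-05, limma). Irs2, an adaptor of the insulin and IGF receptors, was near 1% at its promoter, and 212 sites from 611 to 7739 bp after its start went from 33.5% and 33.2% to 16.4%, 8.73% and 11.4%. These sites also span the placed start of the noncoding gene 9530052E02Rik, from 6660 bp before to 468 bp after it. That region was lower by 21.2 ± 1.88 points (SE, adjusted p = 4.53e-05, limma).

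Further genes lost methylation after the start. Mmp15, a membrane-bound matrix metalloproteinase, lost it from 765 to 2156 bp after the start, where 24 sites went from 80% and 80.7% to 63.1%, 56.0% and 57.6%. In Mta2, a subunit of the NuRD chromatin complex, 4 sites from 1484 to 1829 bp after the start went from 80.8% and 80.6% to 56.0%, 52.1% and 50.4%. In Srf, the serum response factor gene, 45 sites from 2421 to 3886 bp after the start went from 54.5% and 59.8% to 39.6%, 35.3% and 36.6%. Over the neighboring starts of Map3k11, a stress kinase gene, and Pcnx3, 103 shared sites went from 21.0% and 18.9% to 8.88%, 6.41% and 6.59%.

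Across all placed starts, falls made up a larger share of the changed sites near the start than far from it, on both sides. From the start to 50 bp after it 4.90% of sites fell and 3.85% rose, and from 50 to 500 bp 6.66% fell and 5.06% rose. Between 500 and 1000 bp after a start 9.03% fell and 9.07% rose, and between 1000 and 2000 bp 9.58% fell and 10.9% rose. From 1000 to 250 bp before a start 10.5% fell and 11.2% rose. Over 5000 bp from any placed start 4.79% fell and 11.8% rose, and within the 250 bp before a start 3.87% fell and 4.85% rose. Neighboring sites are not independent, and these shares are descriptions. Of 699 regions within reach of a placed gene, 42.5% were higher and 12.2% were lower, against 49.6% and 9.67% of all regions.

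Methylation also rose upstream of several genes whose promoter window did not pass the threshold. Vegfa encodes the main vascular growth factor, and 17 sites between 6066 and 4847 bp before its start went from 56.9% and 57.7% to 77.7%, 80.6% and 81.2%. Bcar1, an adaptor of focal adhesions, rose between 980 and 87 bp before its start, where 21 sites went from 16.7% and 16.2% to 37.0%, 39.6% and 38.7%. This stretch overlaps the promoter window of Bcar1, and its last measured site lies 87 bp before the start. The same sites lie 2290 to 3183 bp after the placed start of the noncoding gene Gm51589. Ezr encodes ezrin, which ties actin to the membrane, and 25 sites between 1870 and 780 bp before its start went from 42.2% and 44.3% to 61.8%, 62.9% and 62.2%. These 3 regions were higher by 22.5 ± 1.04, 21.9 ± 1.05 and 19 ± 0.781 points (SE, adjusted p of 3.76e-06, 4.14e-06 and 2.63e-06, limma).

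Opposite changes stood side by side upstream of 2 genes of interferon and cytokine signaling. Before the start of Tyk2, a Janus kinase, 11 sites from 5640 to 4344 bp fell from 39.4% and 44.2% to 28.6%, 24.3% and 24.8%, and 4 sites from 2376 to 2042 bp rose from 40.8% and 34.7% to 58.4%, 61.7% and 60.8%. Before the start of Irf8, an interferon regulatory factor, 9 sites from 5897 to 4940 bp rose by 10.8 ± 0.796 points and 38 sites from 4139 to 2554 bp fell by 11.0 ± 0.755 points (SE, adjusted p of 2.04e-05 and 1.62e-05, limma). The genes in these paragraphs on neighboring regions were chosen after their values were seen.

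The largest rises of all lay away from any placed gene. On chromosome 7, 10 sites at chr7:149618262-149618577 went from 26.3% and 27.3% in the tumors to 76.6%, 87.3% and 84.7% in the TVI metastases, with 41.2% ± 2.49 (SD, n = 3) in the MFP metastases. The region was higher by 56.1 ± 2.93 points (SE, adjusted p = 5.71e-06, limma) and all 10 sites rose. On chromosome 15, 13 sites at chr15:85408652-85409299 went from 28.1% and 23.9% to 65.6%, 70.8% and 63.9%, and all 13 rose. The 12 largest rises ranged from 28.3 to 56.1 points, and in each of them every TVI sample was above both tumors by the rule that chose them.

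Broad regions rose as well. At chr12:8781817-8784849, 37 of 40 sites rose and the mean went from 48.5% and 52.0% to 79.5%, 81.4% and 80.7%. At chr2:27629557-27631958, 34 of 46 sites rose and the mean went from 52.5% and 50.7% to 79.8%, 82.3% and 81.5%. Here the MFP metastases were between the other groups, at 60.2% ± 0.822 (SD, n = 3). At chr11:7032420-7036120, 38 of 52 sites rose and 1 fell.

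The longest stretch of loss lay at chr1:59537821-59541859, with no placed gene. Its 192 sites averaged 49.2% and 49% in the tumors and 20.2%, 13.8% and 16% in the TVI metastases, lower by 32.4 ± 1.65 points (SE, adjusted p = 5.07e-06, limma), and 109 sites fell, 104 of them in 1 run. At position 59540430 methylation was 96.0% and 97.9% in the tumors and 17.9%, 5.32% and 12.2% in the TVI metastases, a difference of 85.1 points, the largest of any site past the threshold. Sites in the middle of the region were unmethylated in every group and the loss began beside them.

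**Figure D5:**
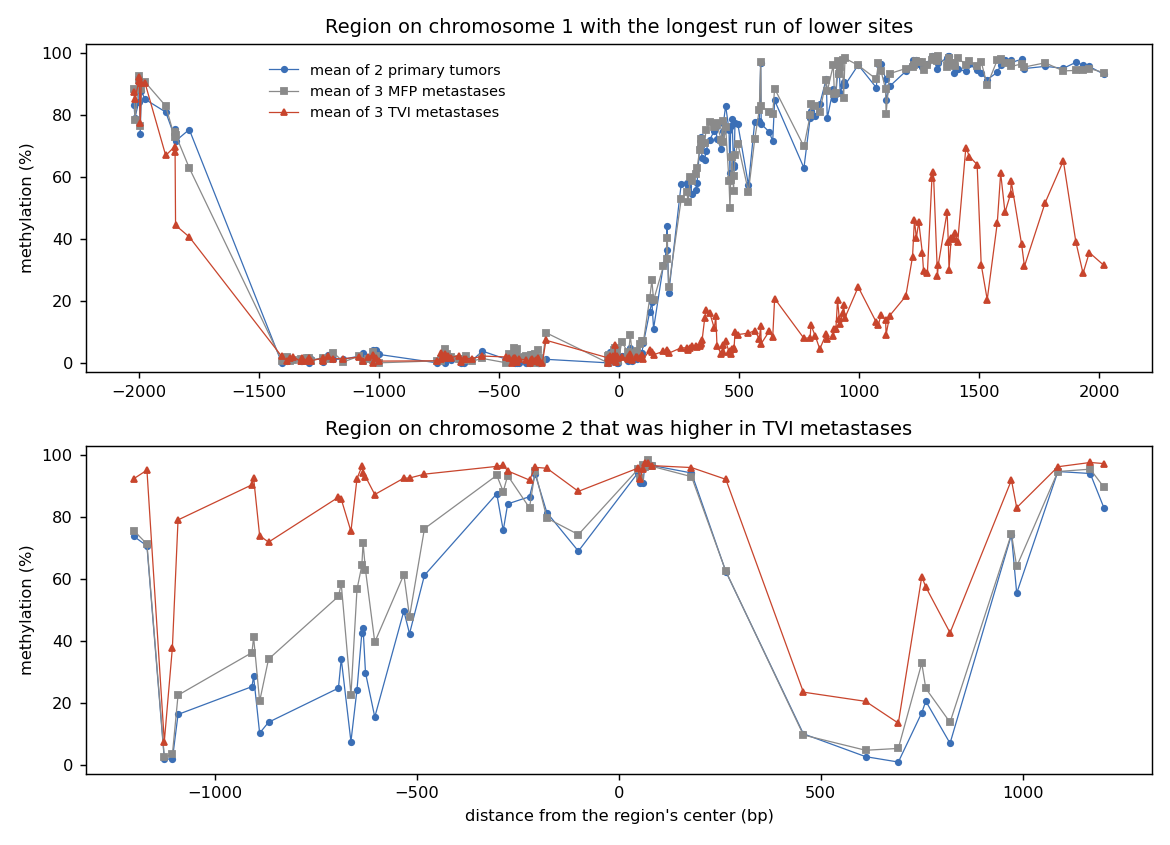
Mean methylation (%) of each site along a region on chromosome 1 (top) and a region on chromosome 2 (bottom), against distance from the center of the region in bp, for the 2 tumors (blue), 3 MFP metastases (gray) and 3 TVI metastases (red). On top the tumors and MFP metastases climb to over 90% while the TVI metastases stay below them over the same sites; at the bottom the TVI metastases are highest at most sites and the MFP metastases mostly run at or above the tumors.

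The 12 largest falls ranged from 21.5 to 36.9 points. The second, at chr11:53584238-53585380 with no placed gene, went from 68.6% in both tumors to 39.9%, 31.9% and 32.5%. In all 12 falls TVI replicate 1 lay nearest to the tumors. Over all 298 lower regions it was nearest in 245 (82.2%), and over the 1530 higher regions in 766 (50.1%). The median difference from the tumors over the lower regions was -3.45 points in TVI replicate 1, -5.55 in replicate 2 and -4.74 in replicate 3. Without TVI replicate 1, 1734 regions passed (1427 higher, 307 lower), 20701 sites (13555 higher, 7146 lower) and 47 promoters (30 higher, 17 lower). The part of cell mix, depth or library handling in that difference was not tested.

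Between TVI and MFP metastases 1718 regions (55.7%) passed the threshold, and between MFP metastases and tumors 162 (5.25%). All 24 regions named by size passed between TVI and MFP metastases, in the same direction as against the tumors, and 2 of the 24, chr7:149618262-149618577 and chr2:27629557-27631958, also passed between MFP metastases and tumors. Both contrasts hold the same TVI samples, so they are not independent. In the region on chromosome 7 the MFP metastases were 14.3 points above the tumors and the TVI metastases were 41.7 points above the MFP metastases. The Nfkbia region differed by 1.42 points between MFP metastases and tumors (adjusted p = 0.772, limma).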

How the data were processed

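DNA methylation was measured by bisulfite sequencing of 8 samples. Extraction (ZR-Duet kit) and conversion (EZ-DNA Methylation Gold kit) are given per the labels' protocols. Trimmomatic, Bismark and mm10 are named in the submitters' processing notes. For versions, coverage filters and site selection, nothing is given in the sources used here. A table was made by the authors, who deposited beta values (the methylated fraction, 0 to 1) at 136069 positions, with no counts or coverage, so depth is unknown and precision was judged from the spread between samples. Of 3166 chromosome 7 sites, 557 lie beyond the last GRCm38 gene on that chromosome, so the positions are not those of mm10.

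Fractions were turned into percent and fitted with limma 3.58.1 in R 4.3.3 (1 mean per group, all 8 samples, variance trend, two-sided, Benjamini-Hochberg over all 135914 varying sites, all 3083 regions or all 263 placed promoters, threshold 0.05). The code was tested on simulated data, where most changes at single sites of up to about the median size called here were missed. In the single draw made, the share of false calls among site calls was above the threshold. Far fewer sites were changed in that draw than passed in the data, so neither result carries over to the data. Regions join sites up to 500 bp apart and hold at least 3. Single values per sample were compared by exact permutation.

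A promoter was placed where at least 90% of the measured sites in its window were its CpGs, with a lead of 3 over the next best position, and at least 5 CpGs and 50% of them matched, or 7 and 30%. These limits were set after several were tried against reversed sequences, without looking at group differences. The step was added after seeing the data and replaces the planned overlap with genes, which needed an annotation of the table's own build. A gene with several windows kept the one with most CpGs matched, and 23 pairs of windows share bases. Distances from a start are in deposited coordinates. A region was tied to a gene when any part of it lay within 5000 bp before the start or within the annotated gene length. Such a region can therefore reach beyond either limit. Matching symbols came from RefSeq.

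Named regions are the 12 largest rises and 12 largest falls past the threshold with every TVI sample on one side of both tumors. Promoters past the threshold by at least 10 points were named by a rule added later. The comparison, gene lists and rules were chosen with earlier results of these data known. Alternatives were other samples in the fit, scales, variance priors, joining distances, a minimum difference, a replicate block and leaving out each sample.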

Additional observations from a re-analysis of the deposited data

Results flagged for a closer look

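The difference between TVI and MFP lung metastases was tested in the same limma fit, which asks whether both metastasis groups depart from the tumors alike. It gave 23001 sites, 1718 regions and 49 placed promoters past the threshold. TVI minus MFP metastases was +41.7 points at chr7:149618262, +35.8 at chr15:85408652, +37.7 at chr2:152734667, +26.1 at chr14:56384689, +28.3 at chr11:117810330 and +28.3 at chr11:49461954. It was +26.6 at chr12:8781817, +21.0 at chr2:27629557, +26.9 at chr10:92735628, +27.1 at chr8:125369569, +27.3 at chr11:7032420 and +23.5 at chr6:86066664.

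Among the regions that were lower against the tumors, the same difference was -38.3 points at chr12:56591181 (Nfkbia), -35.7 at chr11:53584238, -33.0 at chr1:59537821, -33.2 at chr15:77667560, -26.8 at chr19:9017895 (Mta2) and -25.2 at chr4:140794293. It was -24.2 at chr6:113433020 (Creld1), -20.9 at chr3:57652054, -17.5 at chr15:97645518, -19.1 at chr16:10784921 (Socs1), -21.5 at chr9:21039328 and -19.4 at chr8:97876962 (Mmp15).

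Of the 26 promoters named by size, 25 passed between TVI and MFP metastases, where 49 of all 263 placed promoters (18.6%) passed. The 26 were chosen by their difference from the tumors in the same TVI samples, which favors such a count, so it is no independent support. TVI minus MFP metastases was -35.8 points for Cldn7, -34.4 for Cyba, -32.1 for Creld1, -27.7 for Prkag2, -24.0 for Rasgrp2, -22.9 for Tcam1, -17.5 for Gm15998, -12.8 for Abhd15, -14.9 for Rara and -11.6 for Cldn14. It was +7.90 for Ptpn7, +11.0 for Gm35930, +9.12 for F10, +9.25 for Efna3, +10.7 for Limd2, +15.1 for Gm52569, +16.4 for Cd63 and +12 for Tlr5. It was +21.1 for Fzd1, +18.1 for Cldn3, +20.5 for Akt2, +24.7 for Dennd4b, +23.0 for Hoxa10, +27.2 for Notch1 and +25.4 for Tjp3. Gm51589 was the exception, at an adjusted p of 0.178 in limma.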

How the results depend on the processing

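No named region or promoter reversed under the 14 settings that refit it, and all 24 named regions stayed past the threshold in each. Of the 52 promoters, 32 stayed past it in all 14 and 20 lost it in at least 1. Quantile normalization moved the median difference of regions from 1.34 to 0.089 points and gave 10073 sites higher, 861 regions higher and 663 lower, and 20 promoters higher. A minimum of 10 points left 291 regions (241 higher, 50 lower), 269 between TVI and MFP metastases, and 26 promoters (16 higher). Joining sites up to 200 bp gave 3983 regions past the threshold (3259 higher, 724 lower) and up to 1000 bp 1040 (872 higher, 168 lower), where the number of regions tested changes too. Leaving out each sample gave 16491 to 22671 sites, 1535 to 1831 regions and 41 to 52 promoters, and a mean difference of 1.69 to 2.01 points. With 1 tumor left out, the lone tumor is assumed to vary like the other groups. With the replicate number as a block, 19628 sites, 1686 regions and 44 promoters passed. Deviations of same-numbered samples from their group means were nearly uncorrelated. The correlations were 0.00809 and 0.00766 for tumors with TVI metastases and 0.0172 and 0.0129 for tumors with MFP metastases. They were -0.00370, -0.000905 and 0.00849 for MFP with TVI metastases. Such values cannot show whether samples of the same number shared an animal or a batch. The cause of these shifts was not tested. Unknown depth means that low coverage cannot be told from biological spread at single sites.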
